A study of Mus musculus with 6 samples.

Results

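The genes described here were 6 genes that mark the two-cell-like state of mouse embryonic stem cells (mESCs): Zscan4c, Zscan4d, Zscan4f, Tcstv1, Tcstv3 and Zfp352. They were chosen by symbol, and all 6 were found among the 23412 genes of the table. RNA-seq had been made from 2 undifferentiated mESC lines of strain 129Sv, with 3 libraries per line. R1 is the wild type parental line, and HN is a single Htt-null line derived from it by deletion of the promoter and exon 1 of Htt, the gene mutated in Huntington's disease. Both lines were grown without feeder cells in serum medium with leukemia inhibitory factor, an inhibitor of the VEGF and FGF receptors, the MEK inhibitor PD184352 and the GSK3 inhibitor CHIR99021, so these agents were shared by every library. One library of each line was collected on each of 3 dates, 17 February, 20 February and 2 March. The values were normalized counts, which are the reads counted on the exons of a gene divided by the size factor of the library.

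A small, changing fraction of the cells in an mESC culture passes for a short time into a state that resembles the cells of the embryo at the stage of zygotic genome activation. Cells in this state transcribe genes that are silent in the rest of the culture, among them the Zscan4 cluster, the Tcstv genes and copies of the endogenous retrovirus MERVL. Zscan4 proteins carry a SCAN domain and zinc fingers and act in telomere lengthening by recombination and in genome stability, and the transcription factor Dux drives entry into the state. The RNA here came from whole cultures, so fewer cells in the state and less RNA in each such cell cannot be told apart.

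The annotation of GRCm38 (GENCODE M21), the build of the alignments, places Zscan4c at chr7:11005745-11010547 on the plus strand, Zscan4d at chr7:11161374-11166159 on the minus strand and Zscan4f at chr7:11397915-11402318 on the plus strand, each with 4 exons. They lie with Zscan4a, Zscan4b and Zscan4e in a cluster that spans 608077 bp. Tcstv1 lies at chr13:119893388-119894785 on the minus strand with 1 exon, and Tcstv3 at chr13:120316878-120318178 on the plus strand with 2 exons. Zfp352, a zinc finger gene expressed in the early embryo, lies at chr4:90218820-90225702 on the plus strand with 2 exons. Exons were counted in the longest transcript of each gene, and Zscan4f, Tcstv1, Tcstv3 and Zfp352 have 2 annotated transcripts each. None of the 6 genes overlapped another annotated gene.

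The 3 Zscan4 genes are near copies, and this bears on how far one can be told from another. Their coding sequences were each 1518 bases long. Zscan4c and Zscan4f differed at 6 positions (99.6% identity), and Zscan4d differed from each of them at 35 (97.7% identity). Over the 3 genes 38 positions differed, and the longest run without a difference was 233 bases, which is longer than a read of 50 bases. The window of 50 bases in which the closest pair differed most, coding bases 1042 to 1091, is shown for each gene on its own strand, with the differing bases in capitals, to let the copies be compared directly.
Zscan4c, chr7:11009517-11009566: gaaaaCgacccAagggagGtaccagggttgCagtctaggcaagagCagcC
Zscan4d, chr7:11162351-11162400: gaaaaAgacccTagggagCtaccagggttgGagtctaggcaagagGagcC
Zscan4f, chr7:11401710-11401759: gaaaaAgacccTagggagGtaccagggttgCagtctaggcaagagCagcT

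Of all stretches of 50 bases in the exons, 85.5% in Zscan4c, 49.6% in Zscan4d and 86.8% in Zscan4f also occurred in another gene, nearly all in other Zscan4 copies. The share was 15.0% in Tcstv1, 31.4% in Tcstv3 and 7.09% in Zfp352. Stretches were scored singly although the reads were paired, so a pair could be placed where a single read could not. How reads that match several copies were counted is not given in the sources used here, so the split of reads among the Zscan4 copies is uncertain, and their sum is given beside the single genes.

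The start regions of the Zscan4 genes were as alike as their coding sequences. In RefSeq promoter windows of GRCm38.p6, found for 4 of the 6 genes, Zscan4c and Zscan4f were 99.3% identical and Zscan4c and Zscan4d 97.6%. The 250 bases before the RefSeq start are shown for Zscan4c and Zscan4d, which were both lowest on 2 March, and for Zfp352, which was not. The RefSeq start of Zscan4d lies inside the gene as placed by GENCODE M21, so the end of its window overlaps the gene. Distances from the start thus depend on the annotation. Capitals mark TATAAA, the letters of a TATA box, searched on the strand of the gene.
Zscan4c, chr7:11005495-11005744, plus strand: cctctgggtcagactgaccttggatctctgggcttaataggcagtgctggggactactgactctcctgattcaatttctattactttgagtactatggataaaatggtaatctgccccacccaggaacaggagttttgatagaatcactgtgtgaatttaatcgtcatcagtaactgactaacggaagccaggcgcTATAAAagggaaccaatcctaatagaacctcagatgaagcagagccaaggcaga
Zscan4d, chr7:11166149-11166398, minus strand: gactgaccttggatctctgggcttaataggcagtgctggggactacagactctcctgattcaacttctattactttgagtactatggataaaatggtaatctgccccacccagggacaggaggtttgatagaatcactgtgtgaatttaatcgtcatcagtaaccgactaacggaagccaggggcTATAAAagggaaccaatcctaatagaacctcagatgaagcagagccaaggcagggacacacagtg
Zfp352, chr4:90218570-90218819, plus strand: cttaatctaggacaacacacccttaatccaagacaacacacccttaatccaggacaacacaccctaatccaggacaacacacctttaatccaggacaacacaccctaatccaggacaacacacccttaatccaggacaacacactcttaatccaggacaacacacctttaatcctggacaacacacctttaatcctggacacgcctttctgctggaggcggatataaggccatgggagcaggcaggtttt

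TATAAA began 54 bases before the start in Zscan4c, 65 bases in Zscan4d and 31 bases in Zscan4f, and was not found in the Zfp352 window. Only these exact letters were searched, and the Zfp352 window held TATAAG, which differs in the last letter, near its end. It was present on the strand of the gene in 7.59% of the 32851 promoter windows of the table and on either strand in 12.4%. The Zfp352 window was made mostly of a short tandem repeat that held AATCC 9 times, whereas 17.3% of all windows held these letters at all.

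The libraries held 1640391 to 3866717 reads on genes, and 1 read was worth 0.709 to 1.35 normalized counts. The libraries of 2 March had the most genes with a read, 20675 in R1 and 20542 in HN against 18133 to 19083 in the other 4, although they were not the deepest. Htt stood at 229.9, 257.4 and 199.5 normalized counts in R1 and at 18.3, 58.1 and 54.2 in HN, lower in each HN library as labelled (log2 fold change -2.52, SE 0.37, limma adjusted p = 0.0141).

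All 3 Zscan4 genes had reads in every library, at a low level, down to 3 reads for Zscan4d and 1 read for Zscan4f in HN on 2 March. Zscan4c had 39.4, 20.7 and 10.8 normalized counts in R1 on 17 February, 20 February and 2 March, and 29.2, 39.7 and 9.75 in HN. Zscan4d had 22.4, 30.3 and 8.09 in R1 and 18.3, 56.0 and 3.25 in HN. Zscan4f had 29.8, 12.6 and 5.39 in R1 and 9.73, 34.0 and 1.08 in HN. In each of these genes the HN library of 20 February was highest, the libraries of 2 March were lowest in both lines, and the lines overlapped. The values rested on 162 reads for Zscan4c, 165 for Zscan4d and 106 for Zscan4f over all libraries.

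The other 3 genes were near the detection limit, taken as 3 reads. Tcstv1 and Tcstv3 encode related small proteins whose function is not settled. Tcstv1 had 1 read in R1 and 3 in HN, all on 20 February, or 0.740 and 2.13 normalized counts. Tcstv3 had 3.19, 3.70 and 0 normalized counts in R1 and 0, 2.84 and 0 in HN, from 12 reads. In the libraries with 0 reads, a level of up to 3.19 to 4.04 normalized counts, the worth of 3 reads, could have gone unseen. Zfp352 had 1.07, 2.22 and 5.39 normalized counts in R1 and 1.22, 7.09 and 3.25 in HN, from 22 reads. Unlike the Zscan4 genes it was not lowest on 2 March, and no gene of these 3 separated the lines.

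Per kilobase of the longest transcript, the level averaged over all libraries was 10.9 normalized counts in Zscan4c, 10.1 in Zscan4d, 8.44 in Zscan4f, 2.08 in Tcstv3, 1.48 in Zfp352 and 0.373 in Tcstv1. Scored singly, without the pairing of reads, only 14.5% of stretches of 50 bases in Zscan4c, 50.4% in Zscan4d and 13.2% in Zscan4f occurred in no other gene. If reads with several matches were not counted, these levels would be too low, and unequally so, which limits the comparison between genes. In R1 the means per kilobase of Zscan4c (10.4 ± 6.38, SD, n = 3), Zscan4d (8.92 ± 4.96) and Zscan4f (8.71 ± 6.86) differed by less than their spread. In HN the same held for 11.5 ± 6.68, 11.4 ± 12.0 and 8.17 ± 9.34. Neighbours further down the order also differed by less than the larger of their SDs, except Zfp352 (1.27 ± 0.984) and Tcstv1 (0.193 ± 0.334) in R1.

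**Figure D1:**
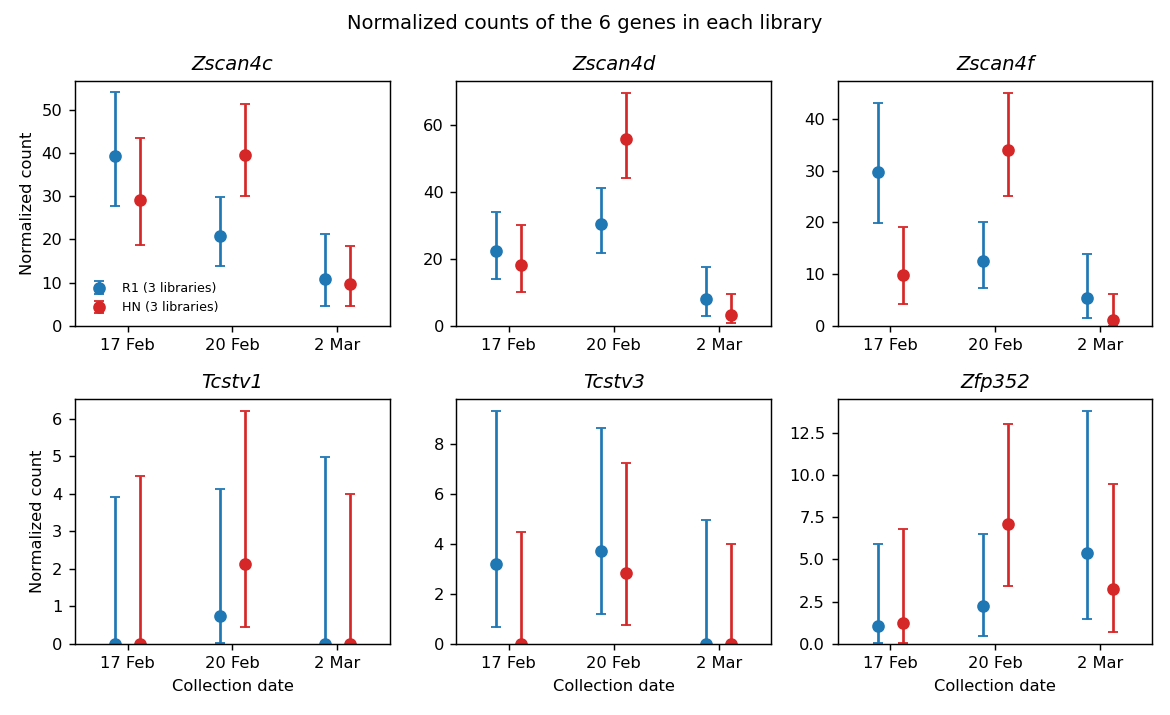
Normalized count (vertical axis) of each of the 6 genes in each of the 6 libraries, by collection date (horizontal axis), R1 in blue and HN in red. Points are single libraries and bars are exact 95% Poisson intervals, which cover counting error only. Zscan4c, Zscan4d and Zscan4f were lowest on 2 March in both lines, with points from 1.08 to 10.8, while Tcstv1, Tcstv3 and Zfp352 stayed at 7.09 or less.

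The first comparison asked whether these genes differed between the HN and R1 lines. With a single line of each kind, loss of Htt and other differences between the lines cannot be told apart. None of the 6 genes differed detectably, and Tcstv1 was too near the detection limit to be judged. Zscan4c averaged 23.6 ± 14.5 normalized counts in R1 (SD, n = 3) and 26.2 ± 15.2 in HN, Zscan4d 20.3 ± 11.3 and 25.8 ± 27.2, and Zscan4f 15.9 ± 12.6 and 14.9 ± 17.1. These 3 genes had the mean of at least 5 normalized counts required for the test, and Tcstv1, Tcstv3 and Zfp352 did not. The log2 fold change, HN minus R1 on the scale of log2(normalized count + 1), was 0.12 for Zscan4c (95% interval -1.10 to 1.34), -0.17 for Zscan4d (-1.92 to 1.58) and -0.59 for Zscan4f (-2.62 to 1.44), with a limma adjusted p of 1 for each. The sign for Zscan4d turned with the scale, since the ratio of the means of HN and R1 was 1.27. These intervals do not show that the lines were alike, since each of them includes changes of more than 1 on the log2 scale.

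A gene was called changed when its Benjamini-Hochberg adjusted p was under 0.05 and its log2 fold change was above 1 in size. With limma 0 of the 3 genes were called, where 0.245% of the 14276 genes tested were. The count of 0 was also given by limma with the collection date as a block (1.95% of genes called), edgeR (0.238%) and DESeq2 (0.56%), and at an unadjusted limma p under 0.05 (5.91% of genes). The block narrowed the interval to -0.50 to 0.73 for Zscan4c, -0.88 to 0.54 for Zscan4d and -1.54 to 0.36 for Zscan4f. In none of the 3 genes were the lines without overlap, as they were in 10.8% of genes. Without the filter on low values, limma called 0 of the 6 genes (0.196% of 22399 genes called), with log2 fold changes of -0.79 for Tcstv3 (95% interval -2.42 to 0.85) and 0.28 for Zfp352 (-1.43 to 1.99). Tcstv1 was at or under 3 reads in every library, and no fold is given for it.

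**Figure D2:**
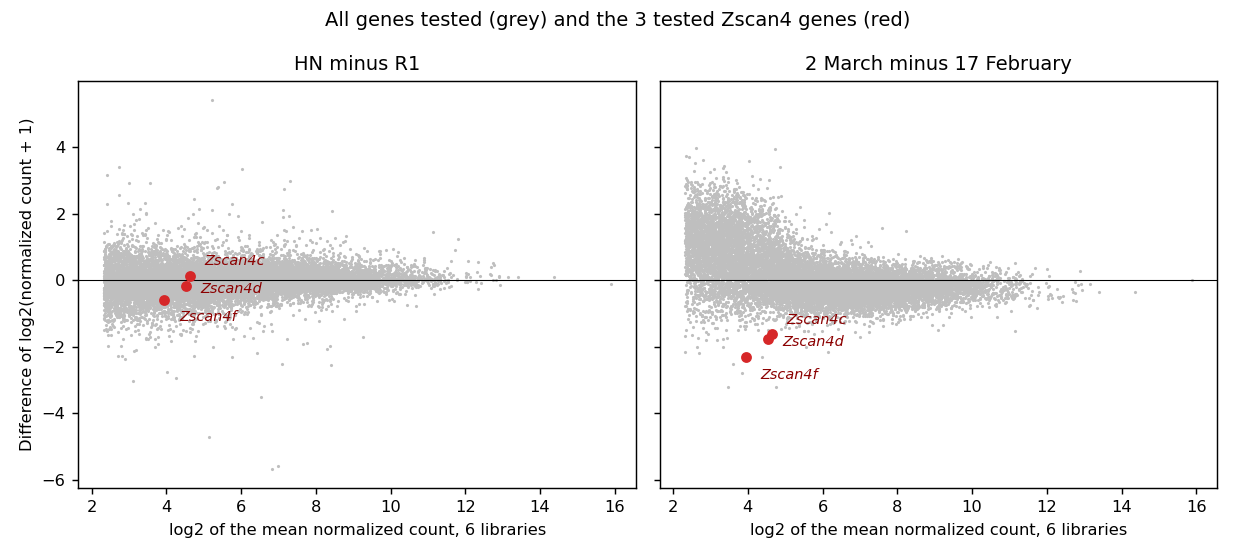
Difference in log2(normalized count + 1) (vertical axis) against the log2 mean normalized count (horizontal axis) for the 14276 genes tested (grey), HN minus R1 on the left and 2 March minus 17 February on the right. Zscan4c, Zscan4d and Zscan4f (red) lie within the cloud on the left, at 0.12, -0.17 and -0.59, and at its lower edge on the right, at -1.63, -1.77 and -2.32.

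The summed normalized count of the 6 genes was 95.8, 70.3 and 29.7 in R1 and 58.4, 141.8 and 17.3 in HN on the 3 dates. The means were 65.2 ± 33.4 and 72.5 ± 63.4 (SD, n = 3). The difference between the lines was therefore smaller than the spread within either of them. Within both February dates, however, the lines differed by more than counting error. On 17 February the sum was lower in HN (ratio of HN to R1 0.610, 95% interval 0.420 to 0.875), and on 20 February it was higher (ratio 2.02, interval 1.57 to 2.60). These intervals are exact binomial intervals and cover counting error only, with 1 library per line and date.

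The excess of HN on 20 February was seen in each Zscan4 gene. The ratio was 1.92 for Zscan4c (1.20 to 3.13), 1.85 for Zscan4d (1.25 to 2.76) and 2.71 for Zscan4f (1.53 to 5.02). On 17 February the ratio was 0.741 for Zscan4c (0.424 to 1.27), 0.816 for Zscan4d (0.391 to 1.66) and 0.327 for Zscan4f (0.129 to 0.735), so that counting error was exceeded in Zscan4f. On 2 March, with 22 reads on the 6 genes in R1 and 16 in HN, the sum had a ratio of 0.584 (0.287 to 1.16). The lines thus differed in opposite directions on 17 and 20 February, and no test of that change was possible with 1 library per line on each date.

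**Figure D3:**
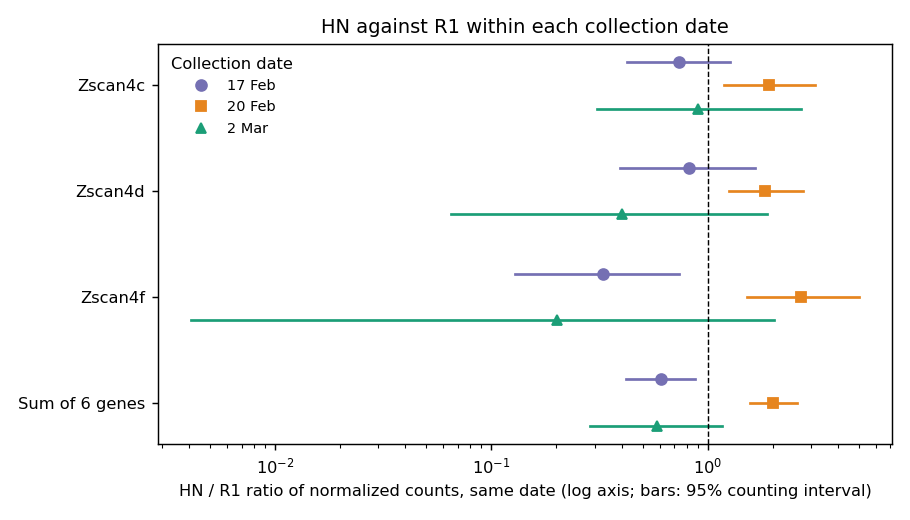
Ratio of HN to R1 normalized counts within each collection date (horizontal axis, logarithmic) for Zscan4c, Zscan4d, Zscan4f and the sum of the 6 genes, with 1 library per line and date. Bars are 95% binomial intervals for counting error, and the dashed line marks a ratio of 1. The summed ratio was 0.610 on 17 February, 2.02 on 20 February and 0.584 on 2 March.

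The second comparison asked how the genes differed between collection dates, with the line as a term in the fit. The 3 Zscan4 genes were lower on 2 March in both lines. The difference of 2 March from 17 February was -1.63 on the log2 scale for Zscan4c (SE 0.37), -1.77 for Zscan4d (SE 0.43) and -2.32 for Zscan4f (SE 0.57). The difference of 20 from 17 February was -0.23, 0.99 and 0.26. All 3 passed the moderated F-test of limma over the dates, with adjusted p of 0.00114, 2.63e-05 and 0.000804, but so did 46% of the genes tested. All 3 both passed and stood more than 1 lower on the log2 scale on 2 March than on 17 February, which held for 1.45% of genes. The 3 genes share much of their sequence, and reads may be shared among them, so they are not 3 independent cases. In rank from the lowest difference between these dates, Zscan4f was 5, Zscan4d 16 and Zscan4c 23 of 14276. The adjusted p stayed under 0.05 in 12 fits that kept the variance trend and a library of 2 March, from 2.50e-05 to 0.0101 for Zscan4c, 1.87e-10 to 0.00757 for Zscan4d and 2.75e-08 to 0.0182 for Zscan4f. Without the variance trend 0 genes passed (5326 at an unadjusted limma p under 0.05), and the adjusted p was 0.0938 for Zscan4c, 0.0798 for Zscan4d and 0.149 for Zscan4f. Between 17 and 20 February alone, Zscan4d passed (adjusted p 0.00749) and Zscan4c and Zscan4f did not (0.640 and 0.679).

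In each of the 3 genes both libraries of 2 March lay below all of the other 4 (20.9% of genes). Averaged over lines, Zscan4c was at 32.2 ± 9.11 normalized counts in February (SD, n = 4) and 10.3 ± 0.732 on 2 March (n = 2), a ratio of 3.14. The ratio was 5.60 for Zscan4d and 6.65 for Zscan4f. The median difference of 2 March from 17 February over all genes was -0.04. Genes at the mean level of the Zscan4 genes, between 15.4 and 24.9 normalized counts, mostly had the opposite sign. Of these 1305 genes 893 were higher on 2 March than on 17 February, with a median difference of 0.39, and 27 stood more than 1 lower.

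The 3 members under the filter gave no date difference that passed. In the fit without the filter the adjusted p was 0.178 for Tcstv1, 0.0733 for Tcstv3 and 0.261 for Zfp352. The difference of 2 March from 17 February was -1.03 for Tcstv3 (SE 0.70) and 1.28 for Zfp352 (SE 0.72). The value of Zfp352 thus had the opposite sign to that of the Zscan4 genes, without passing the test.

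The other Zscan4 copies were also lowest on 2 March, but they share sequence with the members and are not independent of them. Zscan4a, annotated as a pseudogene in GENCODE M21, had 49.0, 20.0 and 1.35 normalized counts in R1 and 34.1, 48.9 and 7.58 in HN. Zscan4e had 29.8, 11.1 and 0 in R1 and 4.87, 19.8 and 1.08 in HN. Zscan4b had 20 reads over all libraries and none on 2 March. Of all genes tested, Zscan4a and Zscan4e had the lowest and next lowest differences of 2 March from 17 February, both at -3.22 (SE 0.44 and 0.72). The sum of the 6 copies, which depends less on how reads were split among them, was 176.7, 96.2 and 25.6 in R1 and 99.8, 204.8 and 22.7 in HN. Its mean was 99.5 ± 75.6 in R1 and 109.1 ± 91.4 in HN, and it was 5.97 times higher in February than on 2 March. The ratio of HN to R1 for this sum was 0.565 on 17 February (0.428 to 0.740), 2.13 on 20 February (1.73 to 2.64) and 0.888 on 2 March (0.455 to 1.75).

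**Figure D4:**
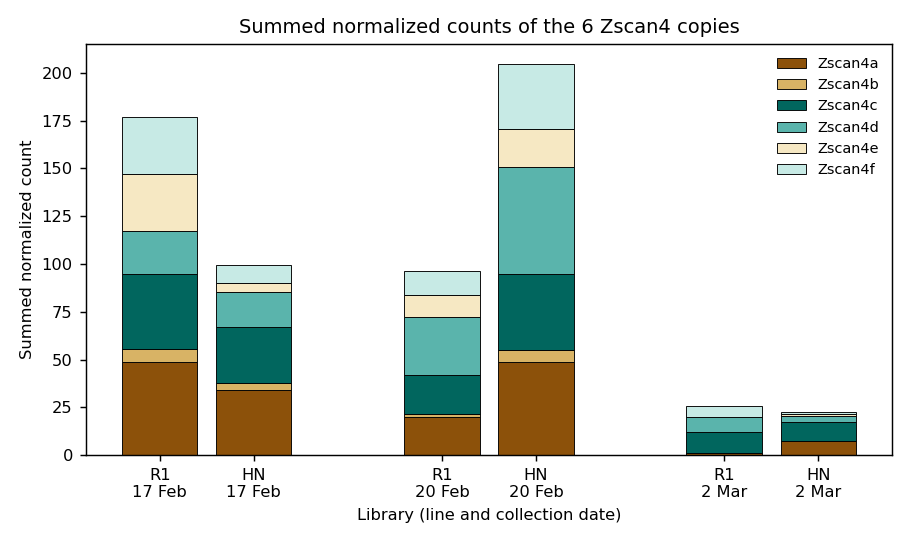
Stacked normalized counts (vertical axis) of the 6 Zscan4 copies in each library (horizontal axis, line and collection date). The total is highest in HN on 20 February (204.8) and R1 on 17 February (176.7), and lowest in the libraries of 2 March (25.6 in R1 and 22.7 in HN).

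Further genes of the state were taken from a list of 32, of which 28 were in the table, 4 of them without reads, and 12 passed the filter. Of these 12, 0 were called between the lines with limma, with a median log2 fold change of 0.22 and 9 of 12 higher in HN, where the median of all genes was -0.01. The Usp17l genes encode deubiquitinating enzymes of another multicopy family, and the sum of 5 of them was 24.5, 19.2 and 16.2 in R1 and 29.2, 60.2 and 22.7 in HN. Like the Zscan4 genes, this sum was highest in HN on 20 February, at 3.13 times R1 (2.00 to 5.07), but its libraries of 2 March did not lie below all of the others. The 3 largest differences between the lines in the list were in Arg2, a mitochondrial arginase (1.64, SE 1.04), Sp110, a nuclear body protein (0.99, SE 0.93), and Gm2022 (0.95, SE 0.80), and each had an adjusted p of 1. With the date as a block, 1 gene of the list was called higher in HN when libraries of 17 February or 2 March were left out, so that the difference rested on the other dates. It was Zscan4a without either library of 17 February (1.56, adjusted p 0.00457 without R1 and 0.00299 without HN) and Sp110 without either or both libraries of 2 March (1.57, adjusted p 0.0104 to 0.0286). Neither was called with the block and all 6 libraries. The fits that did call them called 283 to 386 of the 14276 genes tested. Of 24 alternatives, Zscan4a was called in 2 and Sp110 in 3.

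Between the dates 5 of the 12 genes passed (41.7%), which is near the 46% of all genes. They were Zscan4a, Zscan4e, Gm5662 and Gm8300, all lower on 2 March than on 17 February, and Sp110, which was higher by 3.01 (SE 0.52). Gm5662 had 22.4, 11.8 and 1.35 normalized counts in R1 and 9.73, 25.5 and 2.17 in HN. Its libraries were high and low where those of Zscan4f were, and its difference between these dates was -2.54 (SE 0.58). Sp110 had 1.07, 13.3 and 51.2 in R1 and 17.0, 13.5 and 45.5 in HN, so the genes of the state did not all move as the Zscan4 cluster did.

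**Figure D5:**
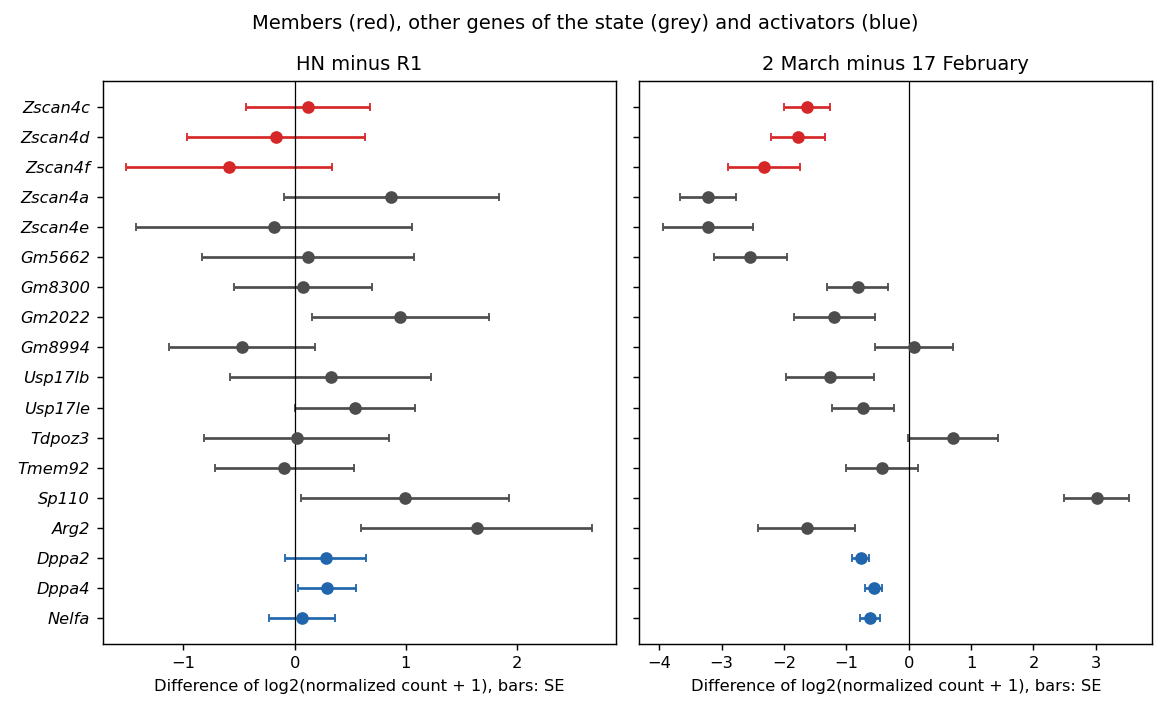
HN minus R1 (left) and 2 March minus 17 February (right) in log2(normalized count + 1) (horizontal axes) for the 3 tested members (red), the 12 other tested genes of the state (grey) and the 3 tested activators (blue). Points are fitted differences and bars are standard errors, from the fit without the date on the left and with it on the right. Zscan4a, Zscan4e and Gm5662 lie with the members on the right, at -3.22, -3.22 and -2.54, and Sp110 lies opposite, at 3.01.

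Of the activators of the state, Dux was near the detection limit, with 1.07, 0.740 and 6.74 normalized counts in R1 and 3.65, 1.42 and 4.33 in HN, from 16 reads. Dppa2 and Dppa4, which act as a pair upstream of Dux, and Nelfa, a subunit of the negative elongation factor, passed the filter. They were not called between the lines, with log2 fold changes of 0.28, 0.29 and 0.06. All 3 passed the test between dates, as did 46% of all genes tested. Their differences between 2 March and 17 February were -0.77, -0.57 and -0.62 on the log2 scale. Dppa2 stood at 236.3, 371.4 and 145.6 in R1 and 310.3, 427.4 and 172.2 in HN. Its libraries were thus ordered by date in the same way within both lines, 20 February highest and 2 March lowest.

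Of 29 repressors of the state, chromatin factors such as Kdm1a, Trim28 and the histone chaperone subunit Chaf1a, 0 were called between the lines, with a median log2 fold change of 0.07. The repressor with the largest difference was Zfp42, also called Rex1 and a marker of undifferentiated cells, at -0.79 (SE 0.18, limma adjusted p 0.195). It had 2009, 2381 and 1886 normalized counts in R1 and 1061, 1295 and 1272 in HN, without overlap. Zmym2 was the other repressor of the 29 whose lines did not overlap, where 10.8% of all genes tested had such lines. With the date as a block 5 of the 29 had an adjusted p under 0.05 (9.48% of all genes tested), Zmym2, Mga, Ep400 and Uhrf1 higher in HN and Zfp42 lower, and 0 of these passed the limit on the fold change. Uhrf1, which guides maintenance DNA methylation, was the next largest, at 0.57 (SE 0.25), and Ep400, a chromatin remodeller, followed at 0.38 (SE 0.24). Between the dates 23 of the 29 repressors passed the F-test (79.3%), where 46% of all genes tested did. In 13 of the 29 both libraries of 2 March were lowest (20.9% of genes tested), and in 0 were both highest (21.3%). The summed level of the repressors was 20531 to 28001 normalized counts in the February libraries and 17513 to 18855 on 2 March. A lower level on 2 March was thus not particular to the activators.

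Of 10 telomere proteins, 0 were called, with a median of 0.10. The 3 largest differences were in Atrx, a chromatin remodeller at telomeres (0.62, SE 0.22), Pot1b (0.40, SE 0.27) and Terf1 (0.34, SE 0.23), both shelterin proteins. Only Atrx had an adjusted p under 0.05 with the block.

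Markers of primitive endoderm and fibroblasts had higher summed levels on 2 March. The summed level of trophectoderm markers was not higher, although most of the single genes tested were. The summed level of 7 primitive endoderm markers was 41.4 to 68.1 normalized counts in the February libraries and 150.5 to 175.2 on 2 March, and in all 7 both libraries of 2 March were highest (21.3% of genes tested). The summed level of 7 fibroblast markers was 12.8 to 54.3 and then 69.3 to 106.5, with Dcn at 7 reads over all libraries. The 6 trophectoderm markers summed to 70.3 to 214.8 in February, and their sums of 95.7 to 121.3 on 2 March lay within that range. The summed level of 9 pluripotency markers, Pou5f1 and Nanog among them, was 17153 to 22502 and then 13442 to 15784, so the markers of the labelled cell type were high in every library. The part of these differences, and of the larger number of genes detected on 2 March, in the lower level of the Zscan4 genes was not tested.

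Between the lines, 0 of these marker genes were called. With the date as a block 1 pluripotency marker, Utf1 (log2 fold change -1.06), and 1 fibroblast marker, Thy1 (-1.54), were called lower in HN. That fit called 1.95% of all genes tested. With the block and fewer libraries, a trophectoderm marker was also called higher in HN. It was Cdx2 without either or both libraries of 2 March (1.68, limma adjusted p 0.0220 to 0.0351). It was Eomes without either library of 20 February (1.08, limma adjusted p 0.000685 without R1 and 0.00133 without HN). These fits called 192 to 386 of the 14276 genes tested. Of 24 alternatives, Cdx2 was called in 3 and Eomes in 2. The lines did not overlap in Utf1, Thy1, Nanog (0.28), Klf4 (0.52) and Tfcp2l1 (0.56), the last 3 higher in HN. Of the 9 pluripotency markers 3 were thus higher and 1 lower, and of 4 fibroblast markers tested 1 was lower. Lines without overlap were found in 10.8% of all genes tested. The largest values of the other lists were those of Gata3 (1.47), Cdx2 (1.11) and Eomes (0.96) among trophectoderm markers, Gata4 (0.87), Sox17 (-0.74) and Gata6 (0.18) among primitive endoderm markers, and Col1a2 (-0.45) and Col1a1 (-0.13) among fibroblast markers.

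Across the 6 libraries, the genes whose log2 level followed the summed level of the 6 members most closely were Akap2 (Pearson r = 0.994), Bbc3 (0.993), Fkbp10 (0.992), Sik3 (0.991) and Nt5dc1 (0.990). Akap2 ranged from 113.7 to 177.2 normalized counts, a far smaller span than that of the members. Zscan4e was at rank 471 with r = 0.887 and Zscan4a at rank 1351 with r = 0.802. After the mean of each line was removed, the closest genes were BC030867 (0.999), Dapk1 (0.998), Ipmk (0.998), Plekho2 (0.997) and Cops5 (0.996). These values are a description over 6 libraries that share dates and depth, and 2.45% of 14249 genes had r above 0.9 by level and 5.86% by deviation from the line mean.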

How the data were processed

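Total RNA of R1 and HN mESCs had been made into TruSeq RNA v2 libraries, a kit that does not mark strand, and sequenced as paired reads of 50 bases. The authors aligned reads to mm10/GRCm38 with STAR, removed duplicates with Picard, counted reads on exons with HTSeq and divided the counts by DESeq2 size factors, which gave the deposited signal of each gene, a normalized count. Tool versions, the gene annotation and the handling of reads with several matches are not given in the sources used here. Every value (100%, tolerance 0.001) was a whole multiple of 1 read, and reads were recovered for depth, intervals and the count tests. In all, 27 rows carried a date in place of a gene name, and 1013 genes had 0 reads. Unused columns of per-sample values numbered 0.

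Normalized counts were compared on the scale of log2(normalized count + 1) for the 14276 genes with a mean of at least 5, with limma 3.58.1 (variance trend, Benjamini-Hochberg adjustment) in R 4.3.3. The comparison of the lines had no block, and the dates were compared by a moderated F-test in a fit with line and date. P-values set a difference against the spread between these libraries. In limma with the variance trend, the spread of each gene was drawn toward that of other genes of like level. These p-values therefore do not measure the spread of a single gene alone, and without the trend 0 genes passed between dates. The labels give same-numbered libraries of both lines the same date, so the numbers pair the libraries. The correlations of same-date deviations from the line means were 0.25, 0.69 and 0.77, and those of different dates -0.71 to 0.34. Alternatives were the replicate block, edgeR 4.0.16 and DESeq2 1.42.0 on recovered reads, pseudocounts of 0.1 and 10, no filter, median centring, no variance trend and each library left out. The fits were also run on simulated counts with known changes, drawn with the same dispersion for every gene. The changed genes had higher means than Zscan4f. That run does not show how the fits perform on genes as low and variable as the members. Sequences came from GENCODE M21 and RefSeq (GRCm38.p6), read with Python 3.11.15. The members, lists and tests were chosen with earlier results of these data known. Named genes were the members, Htt, the 3 largest differences of a list, list genes that were called or whose lines did not overlap, and the 5 genes most like the members by each measure.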

Additional observations from a re-analysis of the deposited data

Results flagged for a closer look

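The difference between HN and R1 in Zscan4f changed direction between dates by more than counting error. HN minus R1 was -1.61 on the log2 scale on 17 February (8 against 28 reads, 95% interval -2.96 to -0.44) and 1.44 on 20 February (48 against 17 reads, interval 0.61 to 2.33), a change of 3.05. The difference was not tested beyond counting error, since each line had 1 library on each date.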

How the results depend on the processing

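No member was called between the lines in any of 24 alternatives. The lowest unadjusted limma p of a member was 0.00881, for Zscan4f with the block and without the R1 library of 20 February (log2 fold change -1.57, adjusted p 0.146), and it was 0.0200 without the HN library of that date (-1.57, adjusted p 0.236). The number of genes called, 35, became 278 with the replicate block, 284 with edgeR and the block, 80 with DESeq2, 127 with DESeq2 and the block, 386 with the block and without both libraries of 2 March, and 0 without the variance trend (767 at an unadjusted limma p under 0.05). It ranged from 8 to 55 with each library left out, falling to 8 without the R1 and to 13 without the HN library of 17 February, and rising to 55 without the R1 library of 2 March. With the block as well it was 290 and 283 without the R1 or the HN library of 17 February, 194 and 192 without those of 20 February, and 381 and 384 without those of 2 March. In the paired analysis the block changed the call of no member.

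The sign of the line difference was not settled for any Zscan4 gene. That of Zscan4d turned positive with edgeR (0.35, with the block 0.32), DESeq2 (0.34, with the block 0.023), a pseudocount of 10 (0.022) and without both libraries of 2 March (0.29, with and without the block). Leaving out each library gave -0.33 to 0.69 for Zscan4c, -1.06 to 0.82 for Zscan4d and -1.55 to 0.48 for Zscan4f, the highest value of each without the HN library of 2 March. With the block, the value of Zscan4c turned to -0.28 without either library of 20 February, and that of Zscan4d to 0.29 without either of 2 March. Without the block, the lowest values came without the R1 library of 2 March in Zscan4c and without the HN library of 20 February in Zscan4d and Zscan4f.

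Between dates, all 3 Zscan4 genes passed in 11 of 13 alternatives. Without the variance trend 0 genes and 0 members passed (5326 genes and 2 members at an unadjusted limma p under 0.05), and without both libraries of 2 March 2806 genes and 1 member, Zscan4d, did, which compares 17 with 20 February. With each library left out 3292 to 7545 genes passed, the lowest without the HN library of 20 February, and 3586 without the R1 library of that date. The cause of these shifts was not tested. The exclusion of both 2 March libraries, the block with each library left out and the median centring of the date test were chosen after seeing the data. With 1 to 79 reads per Zscan4 gene and library, and 10 or fewer for the other members, the depth limited every single-library value.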
